A study of Mus musculus with 12 samples.

Results

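The ATP-binding cassette (ABC) transporter family was described in mouse kidney across vehicle, PCN, cisplatin and combined treatment. Members were all protein-coding genes with a symbol of Abca to Abcg followed by a number. The rule used no expression value and took 50 of the 52636 genes in the table (22027 of them protein-coding). There were 16 Abca, 10 Abcb, 10 Abcc, 4 Abcd, 1 Abce, 3 Abcf and 6 Abcg genes. Tap1, Tap2 and Cftr, which encode family proteins under other names, were kept apart.

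All 12 libraries came from kidneys of male wild-type C57BL/6 mice aged 8 weeks, with 3 libraries in each of 4 groups. Controls were given corn oil by mouth and saline. The PCN group was given oral pregnenolone carbonitrile (PCN), a ligand of the rodent pregnane X receptor (PXR), at 40 mg/kg each day. Mice of the cisplatin group had corn oil and 1 intraperitoneal dose of cisplatin, a nephrotoxic platinum drug, at 20 mg/kg, and those of the cisplatin+PCN group had both drugs. Oil or PCN ran for 4 days before cisplatin and 3 days after it, and kidneys were collected 4 days after cisplatin. The written protocol places the cisplatin group once among the PCN-pretreated mice and once among the oil-treated mice, so groups follow the library titles. The titles carry different animal-like numbers, but no label states that each library is a separate animal, and p-values measure only the spread between these libraries.

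ABC proteins bind and hydrolyse ATP, and most use it to move a substrate across a membrane. In the proximal tubule, pumps of the Abcb, Abcc and Abcg subfamilies on the apical membrane release drugs, conjugates and urate into the urine, and other Abcc pumps return conjugates to the blood. Abca proteins mostly handle lipids, several Abcb proteins sit in mitochondria, and most Abcd proteins import fatty acids into peroxisomes. Abce1 and the Abcf proteins have no membrane domain and act on ribosomes. PXR and NRF2 (the product of Nfe2l2) are textbook regulators of several of the drug pumps.

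Reads per library, worked back from the deposited FPKM (fragments per kilobase, corrected for library depth), numbered 18914607 to 26530485. The first principal component carried 80.2% of the variance, on which the control and PCN groups scored -44.9 to -42.1, the cisplatin group 51.2 to 62.6 and the cisplatin+PCN group 21.9 to 40.7. The kidney label was checked against 8 proximal tubule markers, whose summed FPKM was 3301 to 3422 in control, 3198 to 3321 in PCN, 152 to 238 in cisplatin and 245 to 751 in cisplatin+PCN libraries, with none of the 8 at 0 in any group. Neutrophil markers (6 genes) summed to 2.34 to 3.66 in control, 0.994 to 1.76 in PCN, 18.5 to 30.8 in cisplatin and 4.47 to 24.5 in cisplatin+PCN libraries, with Ly6g at 0 in control and PCN. Macrophage markers (7 genes) summed to 81.2 to 99.4 in control, 69.7 to 80.5 in PCN, 93.5 to 138 in cisplatin and 63.1 to 114 in cisplatin+PCN libraries. In cisplatin against control, 3 of these 7 rose, 2 fell and 2 did not pass (limma, adjusted p under 0.05). That is 71.4% called, beside 59.5% of all genes tested. The part of any shift in cell make-up in the results was not tested. In whole kidney, fewer cells of a type and less RNA per cell cannot be told apart.

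Peroxisomal, lipid, urate and conjugate transporters led the family in control kidney. The highest mean FPKM in control belonged to Abcd3, the peroxisomal membrane protein PMP70 (64.5 ± 2.41, SD, n = 3). Next came Abca3, which loads surfactant lipid into lamellar bodies in the lung (49.7 ± 0.661), and Abcg2, the apical breast cancer resistance protein that exports urate and drugs (45.2 ± 1.33). Abcc2, the apical conjugate pump MRP2, followed at 42.7 ± 2.31 and Abcf1, a translation factor, at 20.4 ± 1.06. Abca3 and Abcg2 control libraries did not overlap (49.3 to 50.5 against 44.0 to 46.7), whereas those of Abcg2 and Abcc2 did (40.5 to 45.1 for Abcc2). These 5 genes held 57.2% to 59.0% of the summed family FPKM in control libraries and 63.4% to 66.6% in cisplatin libraries. The family sum itself was 385 ± 2.77 in control, 399 ± 9.11 in PCN, 425 ± 34.7 in cisplatin and 447 ± 32.8 in cisplatin+PCN libraries.

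Of the 50 members, 12 had a mean of at least 10 FPKM in control, 18 lay between 1 and 10, 7 between 0.1 and 1, and 13 below 0.1. An FPKM of 1 corresponded to 18.7 reads per kilobase in the shallowest control library. Genes were tested when at least 3 of the 12 libraries reached 1 FPKM, which 34 members did. The 16 under that minimum included the canalicular liver transporters Abcb4 (phosphatidylcholine, at most 0.0699 FPKM in any library) and Abcb11 (bile salts, at most 0.0341) and the sterol pump subunits Abcg5 (at most 0.0682) and Abcg8 (at most 0.0816). The others were Abca12, Abca14, Abca15, Abca16, Abca17, Abcb5, Abcb6, Abcc8, Abcc12, Abcd2, Abcg3 and Abcg4. Abcb6 (0.0925 to 0.231 in control) shares 55.2% of its exonic bases with a gene on the same strand, so reads there could have been discarded or assigned elsewhere.

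**Figure D1:**
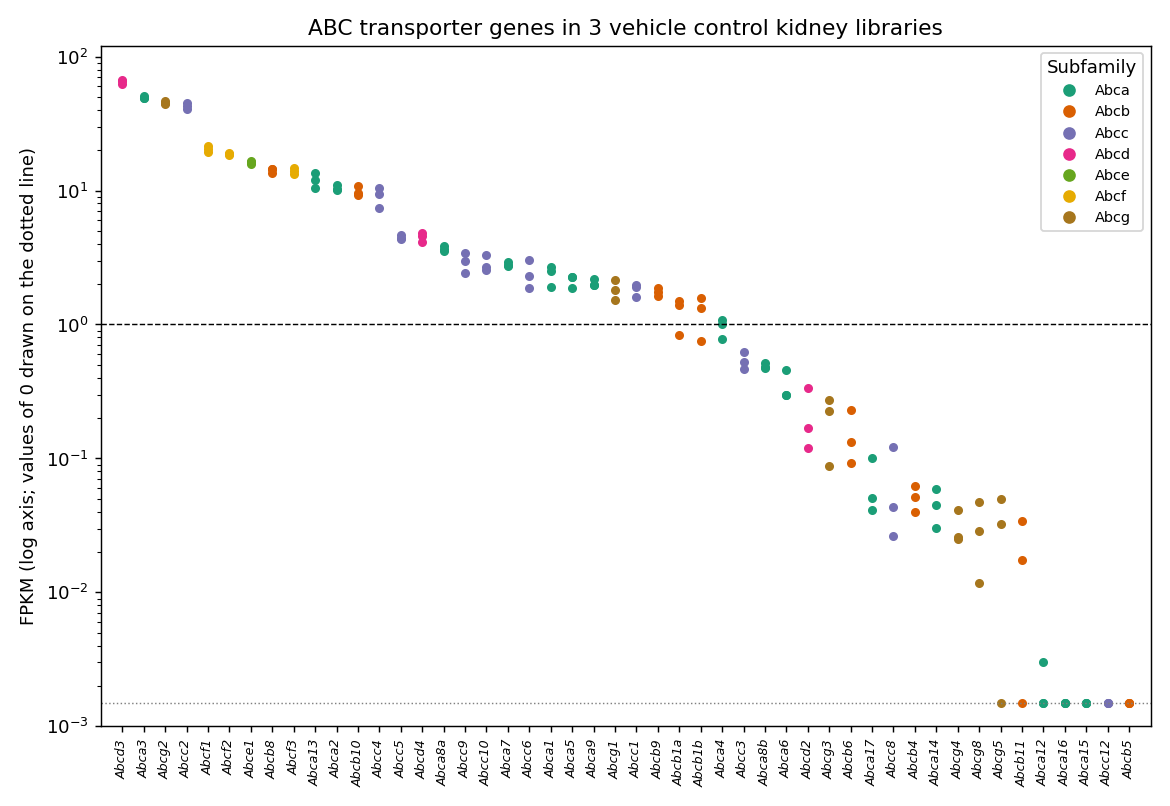
FPKM (log axis) of 48 of the 50 ABC members in each of the 3 control libraries, ordered by mean and coloured by subfamily, with the dashed line at 1 FPKM and values of 0 drawn on the dotted line. Levels run from 64.5 for Abcd3 down to 4 genes at 0 in all 3 control libraries.

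Cisplatin against control had the most calls in the family: 12 of the 34 tested members rose and 16 fell. The highest rises belonged to the drug and conjugate pumps Abcb1b and Abcc3 and the cholesterol exporter Abca1, and the deepest falls to the very large Abca13, the ATP-release protein Abcc6, the endolysosomal lipid transporter Abca2 and the mitochondrial Abcb10. Across all 13540 genes tested, 59.5% passed the threshold (limma, adjusted p under 0.05), 29.8% higher and 29.6% lower. Among the 34 members 82.4% passed, with 7 at least 2-fold apart on the log2(FPKM + 1) scale. Their median log2 difference was -0.05, against 0.01 for all genes, and the median size was 0.54 against 0.39. Of the members that passed, 5 reached the expression minimum only through the groups in which they were higher (Abcc3, Abca6 and Abca8b through cisplatin-treated libraries, Abcc6 and Abca4 through the rest). Without these 5, 9 rose and 14 fell of 29, and these counts describe the tested members only. The call was kept under every alternative setting by 23 of the 28, and lost under at least 1 by Abca7, Abcc2, Abcc5, Abcc10 and Abcg1.

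**Figure D2:**
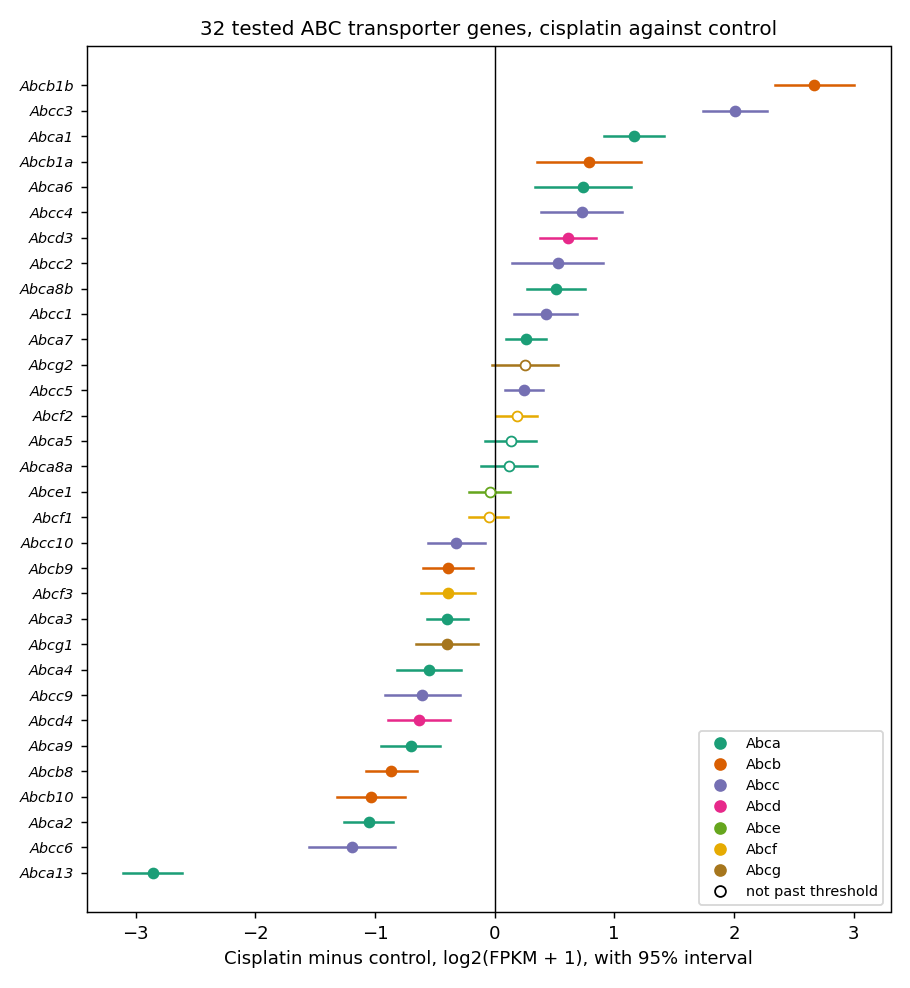
Difference in mean log2(FPKM + 1) between cisplatin and control (3 libraries each) for 32 of the 34 tested members, with 95% intervals and open circles for members not past the threshold. Abcb1b (2.67) and Abcc3 (2.01) stand at the top, Abca13 (-2.86) at the bottom, and 6 members are open.

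The multidrug pumps Abcb1a and Abcb1b are neighbouring rodent paralogs that together stand for the P-glycoprotein encoded by 1 gene in humans. Abcb1b (ENSMUSG00000028970, chr5:8798147-8866315, plus strand) and Abcb1a (ENSMUSG00000040584, chr5:8660077-8748575, plus strand) lie side by side on GRCm38. The 250 bases before the start site of each gene in RefSeq (GRCm38.p6) are shown because the neighbours differed in the size of their rise, with those of Abca1 and Abca13 as a further riser and the deepest faller. RefSeq start sites were matched by symbol for 38 of the 50 members. The RefSeq start of Abcb1a lies 92986 bases before the gene span in the deposited table, so its sequence, at chr5:8566841-8567090, is not at the start of the deposited model. Abcb1b was read at chr5:8797897-8798146 and Abca13 at chr11:9191692-9191941, both on the plus strand, and Abca1 at chr4:53159896-53160145 on the minus strand. Capitals mark matches, on either strand, to 7 motifs: the CCAAT box (letters CCAAT), the GC box (letters GGGCGG), the TATA box (letters TATAAA), the AP-1 site (letters TGANTCA), the antioxidant response core (letters TGACNNNGC), the nuclear receptor hexamer (letters AGGTCA) and the p53 decamer, a pair of which makes up a full p53 site.
Abcb1b: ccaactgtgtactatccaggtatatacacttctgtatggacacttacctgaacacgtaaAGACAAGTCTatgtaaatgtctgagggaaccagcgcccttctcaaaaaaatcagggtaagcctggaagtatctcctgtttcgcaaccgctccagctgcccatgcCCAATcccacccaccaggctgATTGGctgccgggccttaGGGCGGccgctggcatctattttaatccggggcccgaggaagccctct
Abcb1a: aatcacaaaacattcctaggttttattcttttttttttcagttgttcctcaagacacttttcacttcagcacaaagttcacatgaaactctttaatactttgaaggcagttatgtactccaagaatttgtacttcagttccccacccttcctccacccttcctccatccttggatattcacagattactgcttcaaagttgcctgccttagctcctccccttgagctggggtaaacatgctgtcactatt
Abca1: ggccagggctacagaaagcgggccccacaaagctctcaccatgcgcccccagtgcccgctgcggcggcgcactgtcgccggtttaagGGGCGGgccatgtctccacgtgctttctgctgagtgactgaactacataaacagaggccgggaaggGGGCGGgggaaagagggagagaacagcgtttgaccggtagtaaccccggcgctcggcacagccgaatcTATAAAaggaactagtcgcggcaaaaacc
Abca13: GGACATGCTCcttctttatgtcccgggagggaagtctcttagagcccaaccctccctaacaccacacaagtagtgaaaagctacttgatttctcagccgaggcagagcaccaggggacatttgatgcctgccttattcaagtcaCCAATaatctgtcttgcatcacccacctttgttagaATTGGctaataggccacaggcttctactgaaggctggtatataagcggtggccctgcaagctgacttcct
The Abcb1b stretch holds a CCAAT box at 87 and 66 bases before the start (the nearer on the opposite strand), a GC box at 48 and a p53 decamer at 191. None of the 7 motifs matches the Abcb1a stretch. Abca1 has GC boxes at 163 and 97 and a TATA box at 29, and Abca13 has CCAAT boxes at 106 and 70 and a p53 decamer at 250 bases. No marked motif overlaps another. Of all 32851 RefSeq start sites, 33.9% have a CCAAT box in this window, 32.7% a GC box, 12.4% a TATA box, 6.75% an AP-1 site, 10.2% the antioxidant core, 14% the nuclear receptor hexamer and 7.13% the p53 decamer. A match is a letter match only.

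Abcb1b FPKM was 0.749, 1.56 and 1.32 in control, 0.914, 1.36 and 0.909 in PCN, 13.1, 13 and 12.7 in cisplatin, and 10.3, 12.4 and 11.9 in cisplatin+PCN libraries. The 6 cisplatin-treated libraries all stood above the 6 others with no overlap. Mean FPKM was 10.7-fold higher in cisplatin than in control, and the log2(FPKM + 1) difference was 2.67 ± 0.14 (SE; limma, adjusted p = 9.92e-06). Abcb1a FPKM was 0.839, 1.39 and 1.49 in control, 0.861, 1.74 and 1.30 in PCN, 3.91, 2.39 and 2.42 in cisplatin, and 1.58, 1.71 and 2.11 in cisplatin+PCN libraries. Cisplatin libraries did not overlap with control libraries, while cisplatin+PCN libraries overlapped with PCN libraries. Abcb1a rose by 0.79 ± 0.18 with cisplatin (adjusted p = 0.0085).

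The ratio of Abcb1b to Abcb1a FPKM was 0.893, 1.12 and 0.884 in control libraries and 1.06, 0.781 and 0.699 in PCN libraries. It was 3.34, 5.44 and 5.27 in cisplatin libraries and 6.54, 7.21 and 5.67 in cisplatin+PCN libraries, with no overlap between libraries with and without cisplatin. The paralogs are alike enough that 16.3% of the 50-base windows of the Abcb1a exons also occur in Abcb1b, so reads could be split between them, and the treatment of multiply mapped reads is not stated in these sources. Another 10.1% of Abcb1a exonic bases overlap a gene on the opposite strand.

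**Figure D3:**
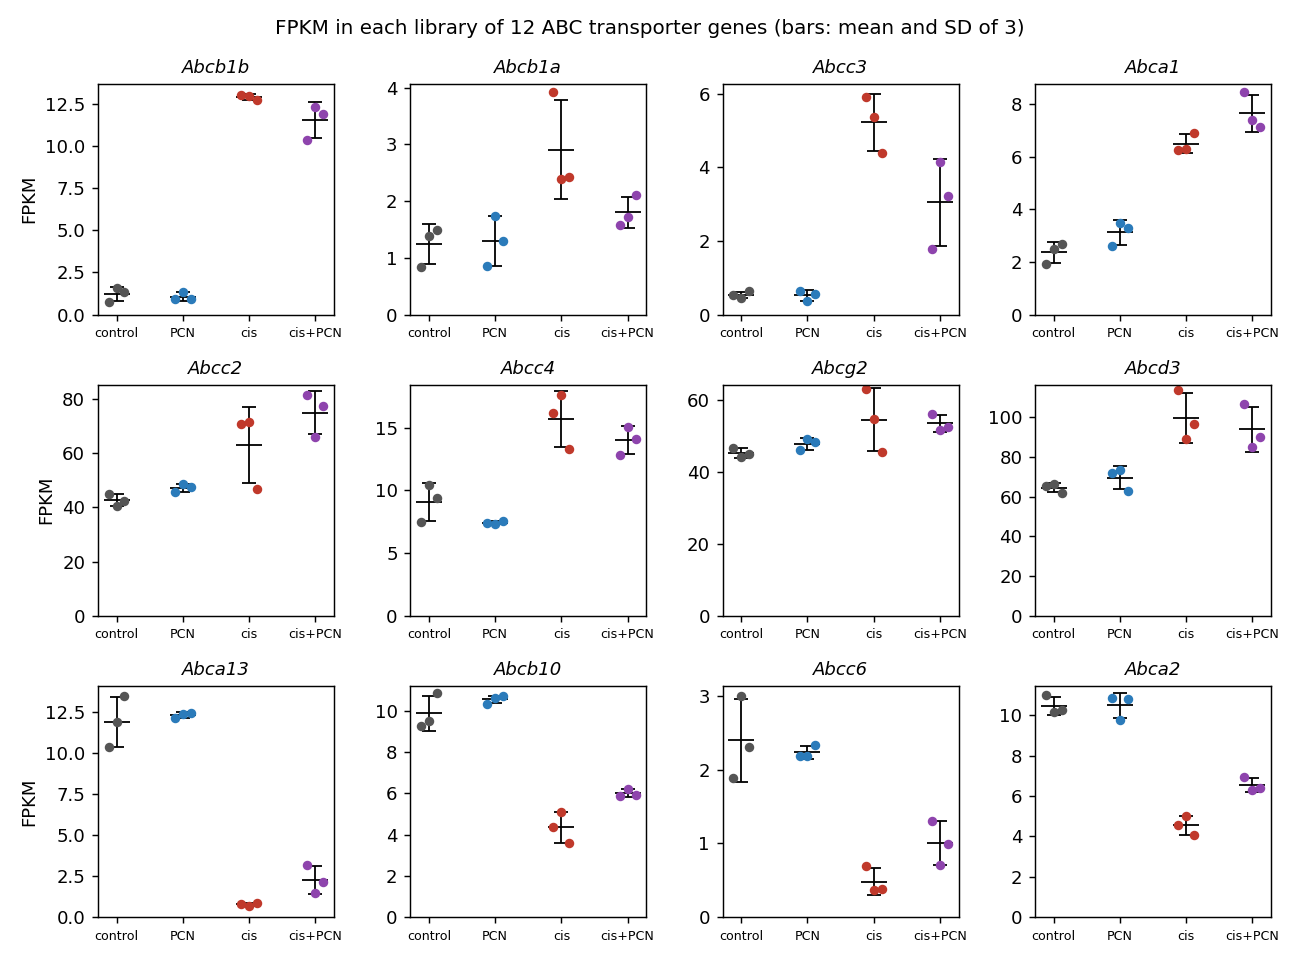
FPKM in each library (points) with the mean and SD of 3 (bars) for 12 members in the control, PCN, cisplatin (cis) and cisplatin+PCN (cis+PCN) groups, on linear axes from 0 that differ between panels. Abcb1b, Abcc3 and Abca1 are higher in every cisplatin-treated library than in any other, and Abca13, Abcb10, Abcc6 and Abca2 are lower.

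The multidrug resistance proteins of the Abcc subfamily export glutathione, glucuronide and sulfate conjugates. Abcc3 (MRP3, a basolateral pump of glucuronides, chr11:94343295-94392997, minus strand, ENSMUSG00000020865) had 0.525, 0.462 and 0.628 FPKM in control and 0.644, 0.366 and 0.560 in PCN libraries. It had 5.92, 5.37 and 4.40 FPKM in cisplatin and 1.78, 4.15 and 3.21 in cisplatin+PCN libraries. Every cisplatin library was above every control library and the groups of cisplatin+PCN and cisplatin did not overlap either. The mean was 9.71-fold higher with cisplatin, a log2(FPKM + 1) difference of 2.01 ± 0.11 (adjusted p = 1.37e-05). On low values the added 1 FPKM shrinks this figure: Abcc3 rose by 3.06 with an added 0.1. Abcc3 reached the expression minimum only through cisplatin-treated libraries, so the filter favoured finding it higher there.

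Abcc2, which empties conjugates into the tubule lumen, had 45.1, 40.5 and 42.5 FPKM in control and 70.7, 71.4 and 46.8 in cisplatin libraries. The third cisplatin library lay close to the controls, and the difference of 0.53 ± 0.16 passed (adjusted p = 0.0267) but missed the threshold without any of control 1, 2 or 3 or cisplatin 1 or 2 (adjusted p from 0.0503 to 0.0863) and without the expression filter (0.0645). Cisplatin+PCN libraries were at 81.6, 66 and 77.5 FPKM for Abcc2, all above the PCN libraries at 45.6, 48.6 and 47.5. Abcc4 (MRP4, an apical exporter of organic anions and cyclic nucleotides) had 7.44, 10.4 and 9.42 FPKM in control and 16.2, 17.6 and 13.3 in cisplatin libraries. These groups did not overlap, and Abcc4 rose by 0.73 ± 0.14 (adjusted p = 0.00399). Abcc1 (MRP1, a basolateral pump of glutathione conjugates and leukotriene C4) rose by 0.43 ± 0.11, from a mean of 1.83 to 2.82 FPKM.

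Abcc5, an exporter of cyclic nucleotides, moved from 4.49 ± 0.164 FPKM (SD, n = 3) to 5.50 ± 0.0429, and its difference of 0.24 ± 0.07 (SE) missed the threshold without control 2 (adjusted p = 0.0736) or control 3 (0.0653). Abcc10, a lipophilic drug pump, was lower, at 2.07 ± 0.163 against 2.84 ± 0.387 FPKM, and its difference of -0.32 ± 0.10 missed the threshold without control 1 (adjusted p = 0.0878), control 3 (0.0549) or cisplatin 1 (0.0829), and by voom (0.0534). Abcg2, the other abundant apical drug and urate pump, had 46.7, 44.0 and 45.0 FPKM in control against 63.0, 54.8 and 45.6 in cisplatin libraries. The groups overlapped at the third cisplatin library, and the difference of 0.25 (95% interval -0.03 to 0.53) did not pass (adjusted p = 0.102). Without cisplatin 3 it was 0.37 for Abcg2 (adjusted p = 0.0143), and with the spread of all 12 libraries the adjusted p was 0.0439.

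Abcc6 releases ATP from cells, which leads to pyrophosphate and restrains mineralisation, and its loss causes pseudoxanthoma elasticum. It had 1.89, 3.00 and 2.31 FPKM in control and 0.690, 0.363 and 0.385 in cisplatin libraries, with no overlap. Abcc6 fell by 1.19 ± 0.15 (adjusted p = 0.000552), and it fell by 2.13 with an added 0.1 FPKM. It reached the expression minimum only through libraries without cisplatin, so the filter favoured finding it lower with cisplatin. Abcc9, the sulfonylurea receptor SUR2 of vascular potassium channels, fell by 0.60 ± 0.13, from a mean of 2.93 to 1.58 FPKM. The 6 smooth muscle and pericyte markers summed to 29.6 to 48.6 in control and 39.9 to 45.3 in cisplatin libraries. Their part in the fall of Abcc9 was not tested. Abcc8 (SUR1), a relative of Abcc9, was below the minimum, at 0.0264 to 0.122 FPKM in control and 0.0642 to 0.123 in cisplatin libraries.

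Lipid transporters of the Abca subfamily moved both ways, with 4 higher and 5 lower of 11 tested, where 59.5% of all genes passed (29.8% higher, 29.6% lower). Without the 3 admitted only through the groups in which they are higher (Abca4, Abca6 and Abca8b), 2 were higher and 4 lower of 8. Abca1, which loads cholesterol and phospholipid onto apolipoprotein A-I, had 1.91, 2.51 and 2.68 FPKM in control and 2.60, 3.48 and 3.31 in PCN libraries. It had 6.26, 6.32 and 6.92 in cisplatin and 8.47, 7.41 and 7.13 in cisplatin+PCN libraries, all above those without cisplatin. Its rise was 1.16 ± 0.11 (adjusted p = 0.000119), or 2.75-fold in mean FPKM. Abcg1, which passes sterol to high-density lipoprotein, was lower, at 1.14 ± 0.0486 against 1.83 ± 0.321 FPKM, and its difference of -0.40 ± 0.11 missed the threshold without control 3 (adjusted p = 0.0584).

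Abca13 (ENSMUSG00000004668, chr11:9191942-9684259, plus strand) encodes a very large and little-studied member. It had 10.4, 11.9 and 13.5 FPKM in control, 12.1, 12.4 and 12.4 in PCN, 0.803, 0.680 and 0.839 in cisplatin, and 3.15, 1.44 and 2.10 in cisplatin+PCN libraries. The 4 groups separated into high libraries without cisplatin, low cisplatin libraries and cisplatin+PCN libraries between them. Mean FPKM was 15.4-fold higher in control than in cisplatin libraries, the widest gap of any tested member, and Abca13 fell by 2.86 ± 0.10 (adjusted p = 2.55e-06). The fall rests on 3835 to 5940 reads per control library and 305 to 451 per cisplatin library.

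Abca2 had 11, 10.2 and 10.2 FPKM in control and 4.57, 5.0 and 4.04 in cisplatin libraries, and fell by 1.05 ± 0.09 (adjusted p = 7.37e-05). Abca3 fell by 0.39 ± 0.07, from 49.7 to 37.6 FPKM, while 9.75% of its exonic bases overlap a gene on the opposite strand. Abca4, a retinoid flippase best known from photoreceptors, fell by 0.55 ± 0.11 (by 1.27 with an added 0.1 FPKM) from a mean of 0.958 to 0.338 FPKM. Abca4 reached the expression minimum only through libraries without cisplatin, so the filter favoured finding it lower with cisplatin. Abca7, a phospholipid transporter also linked to phagocytosis, was at 3.57 ± 0.0815 against 2.81 ± 0.0980 FPKM, and its difference of 0.26 ± 0.07 missed the threshold without control 1 (adjusted p = 0.0557) or control 2 (0.0638).

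A cluster on chromosome 11 holds Abca8b, Abca8a, Abca9, Abca6 and Abca5 in that order, between 109932190 and 110337716, all on the minus strand. Abca6 and Abca8b reached the expression minimum only through cisplatin-treated libraries, so the filter favoured finding them higher there. Abca6 (1.29 against 0.350 FPKM, 0.74 ± 0.17) and Abca8b (1.13 against 0.493 FPKM, 0.51 ± 0.10) rose with cisplatin. Abca9, placed between Abca8a and Abca6, had 1.97, 2.18 and 1.98 FPKM in control and 0.781, 1.09 and 0.762 in cisplatin libraries and fell by 0.70 ± 0.10 (adjusted p = 0.00113). Abca8a (0.12, 95% interval -0.12 to 0.35) and Abca5 (0.13, -0.08 to 0.35) did not pass. With 0.1 FPKM added in place of 1, the differences were 1.58 for Abca6, 1.05 for Abca8b and -1.15 for Abca9, in the same directions.

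The mitochondrial transporters Abcb10 and Abcb8 fell with cisplatin. Abcb10, an inner-membrane protein tied to heme synthesis, had 9.30, 9.53 and 10.9 FPKM in control and 4.35, 5.11 and 3.58 in cisplatin libraries. It fell by 1.03 ± 0.12 (adjusted p = 0.000352), with 10.3% of its exonic bases shared with a gene on the opposite strand. Abcb10 is abundant in red cell precursors, and the 5 erythroid markers summed to 318 to 1187 FPKM in control, 337 to 543 in PCN, 0.472 to 6.94 in cisplatin and 0.198 to 0.638 in cisplatin+PCN libraries, with Hbb-bt at 0 in the last group. Their part in the fall of Abcb10 was not tested. Abcb8 had 14.4, 14.4 and 13.6 FPKM in control and 7.49, 8.08 and 6.47 in cisplatin libraries and fell by 0.86 ± 0.09 (adjusted p = 0.000208). In both genes the cisplatin libraries lay below all control libraries. Abcb9, a lysosomal peptide transporter, fell by 0.39 ± 0.09, from 1.76 to 1.11 FPKM.

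Of 16 heme and iron-sulfur genes listed as partners of the mitochondrial transporters, 3 rose and 9 fell with cisplatin (75% called, beside 59.5% of all genes, of which 29.6% were lower), with a median difference of -0.26. Uros, which makes uroporphyrinogen III, fell by 2.16 ± 0.11 (adjusted p = 1.05e-05), from 7.65 to 0.936 FPKM. Alas1, the rate-limiting step of heme synthesis outside red cells, rose by 0.85 ± 0.16 (adjusted p = 0.00378).

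Abcd3 and Abcd4 moved in opposite directions. Abcd3, which brings branched-chain and dicarboxylic acyl-CoA into peroxisomes, had 65.2, 66.5 and 61.9 FPKM in control and 114, 89.2 and 96.5 in cisplatin libraries. It rose by 0.61 ± 0.10 (adjusted p = 0.00165), with no overlap between the groups. Abcd4, which works in lysosomal cobalamin export, fell by 0.63 ± 0.11 from 4.48 to 2.55 FPKM. Abcd2 was below the minimum, at 0.119 to 0.339 FPKM in control libraries.

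Of 12 listed peroxisomal genes, 6 rose and 1 fell, which is 58.3% called beside 59.5% of all genes. Ehhadh, the bifunctional enzyme of peroxisomal beta-oxidation, rose by 1.46 ± 0.21, while Scp2, a peroxisomal thiolase and lipid carrier, fell by 0.54 ± 0.09.

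Of the 4 soluble members 1 passed, where 59.5% of all genes did. Abce1, which splits ribosomes after termination, was at 16.4, 15.7 and 16.6 FPKM in control and 15.8, 16.6 and 14.9 in cisplatin libraries (difference -0.04, 95% interval -0.21 to 0.13). Abcf1 was at 20.4 ± 1.06 and 19.7 ± 0.470 FPKM (-0.05, -0.21 to 0.12). Abcf2 was at 18.6 ± 0.326 and 21.3 ± 1.28 FPKM, a difference of 0.18 (0.01 to 0.35, adjusted p = 0.0600) that passed under 5 alternatives, among them voom (0.0157) and median-of-ratios rescaling (0.0478). Abcf3 fell by 0.39 ± 0.10, from 14 to 10.5 FPKM. Of 6 tested ribosome-associated partners, 4 rose and none fell (66.7% called, beside 59.5% of all genes). Among those that rose was Eif2s2, a subunit of initiation factor 2 (0.61 ± 0.07).

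Of the 16 members below the minimum, Abca15 and Abcb5 had no reads in control or cisplatin libraries and were not fitted for that contrast. Among the others, the fit without a filter called none for cisplatin against control, where it called 29.7% of 29450 genes. Abcg3, a rodent-specific relative of Abcg2, had 0.226, 0.272 and 0.0882 FPKM in control and 0.0293, 0.0366 and 0.0517 in cisplatin libraries (adjusted p = 0.0544). In cisplatin+PCN against PCN that fit called 19.9% of genes, among them Abcg3 as lower (-0.22 ± 0.05) and Abca17 as higher (0.19 ± 0.03). Both rest on few reads.

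Listed partners of the pumps were measured in the same libraries. Tap1 and Tap2, which feed peptides to MHC class I, rose by 1.12 ± 0.20 and 0.42 ± 0.12, whereas Cftr differed by 0.05 ± 0.23. Of 16 tested genes for glutathione synthesis and conjugation, 9 rose and 4 fell with cisplatin (81.2% called, beside 59.5% of all genes). The highest rise was that of Gsta1, a glutathione transferase (4.71 ± 0.15, from 0.828 to 47.6 FPKM), and Gclc, the catalytic subunit that limits glutathione synthesis, rose by 1.88 ± 0.12. Ggt1, which breaks glutathione down on the apical membrane, fell by 1.70 ± 0.14.

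Among 15 tested transcription regulators of ABC genes, 4 rose and 5 fell, which is 60% called beside 59.5% of all genes. Nfe2l2 rose by 1.69 ± 0.13, from 22.0 to 74.0 FPKM, and Nr1i2, which encodes PXR, by 0.84 ± 0.14, from 2.50 to 5.27 FPKM. Esrra, a receptor that drives mitochondrial genes, fell by 1.68 ± 0.14, and Nr1h3, the oxysterol receptor LXR alpha that controls Abca1, fell by 1.34 ± 0.19. Nr1h2, encoding LXR beta, rose by 0.30 ± 0.10. Of 12 tested cholesterol efflux partners 5 rose and 4 fell (75% called), and Scarb1, the high-density lipoprotein receptor, rose by 1.04 ± 0.15.

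All 10 listed renal solute carriers that share substrates with the ABC pumps fell, where 29.6% of all genes were called lower and 59.5% in either direction. Slc22a7, an organic anion carrier, fell by 4.07 ± 0.25, from 109 to 5.87 FPKM, and Slc22a2, the organic cation carrier that takes up cisplatin, fell by 1.80 ± 0.09. The median over the 10 carriers was -1.22, beside -0.05 for the ABC members and 0.01 for all genes. The 8 proximal tubule markers had a median difference of -3.26, and their part in any of these differences was not tested.

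PCN against control passed for no member. Not 1 of the 13540 genes passed, so percent called was 0, with 1007 genes and 3 members (Abcc2, Abca8a and Abca1) at an unadjusted p under 0.05. The smallest adjusted p of a member was 0.664, and voom and every other alternative also called 0 members. Among pumps often named as PXR targets, Abcc2 differed by 0.14 (95% interval 0.02 to 0.27), Abcc3 by -0.02 (-0.25 to 0.22), Abcb1a by 0.03 (-0.39 to 0.46) and Abcb1b by -0.09 (-0.49 to 0.30). Abcc4 was at 7.39, 7.35 and 7.53 FPKM in PCN libraries against 7.44, 10.4 and 9.42 in control libraries (difference -0.25, -0.51 to 0.02). Of the 3 PCN values, 2 were just under the lowest control value.

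Adding PCN to cisplatin gave no call among the members when the spread came from the 6 libraries compared. Across all genes 0.00739% passed, which is 1 gene of 13540 (131 without cisplatin 2, with no member among them), and 11 of 34 members and 3094 of all genes had an unadjusted p under 0.05. The 16 members that fell with cisplatin all had higher means in cisplatin+PCN than in cisplatin libraries, by 0.12 to 0.83 with a median of 0.32, and 9 of the 12 that rose had lower ones, with a median of -0.08. The members were picked here by a contrast that shares the cisplatin libraries, which by itself favours such opposite signs. The same counts were not made over all genes, so they do not set the members apart. With the spread of all 12 libraries, 6 members passed as higher, among them Abca2, Abca9, Abca13, Abcb10 and Abcc10, and Abcc3 as lower, when 15.6% of all genes passed. No gene of the 8 partner lists passed in this contrast, in PCN against control or in the interaction. The median within-group SD of log2 values was 0.140 in cisplatin and 0.129 in cisplatin+PCN libraries against 0.0861 in control and 0.0755 in PCN, so the pooled spread is narrower than that of the groups compared.

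Abca13 had the largest difference between the treated groups, 0.83 ± 0.19 (adjusted p = 0.119, or 0.0113 with all 12 libraries), and its 3 cisplatin+PCN values, from 1.44 to 3.15, were all above the highest cisplatin value of 0.839. For Abcc3 the difference was -0.66 ± 0.23 (adjusted p = 0.173, or 0.0404 with all 12), and it shrank to -0.41 without the first cisplatin+PCN library, whose 1.78 FPKM was the lowest. That library also had the highest proximal tubule marker sum of its group, 751 against 245 and 509 in the others. The part of tubule marker levels in the Abcc3 value was not tested. Abca2 had 6.94, 6.32 and 6.40 FPKM with cisplatin+PCN against 4.57, 5.0 and 4.04 with cisplatin (0.45 ± 0.09, adjusted p = 0.117). Abcb10 had 5.89, 6.24 and 5.93 against 4.35, 5.11 and 3.58 (0.40 ± 0.12, adjusted p = 0.142). Abcb1a differed by -0.46 ± 0.17 (adjusted p = 0.179), and by -0.29 without the first cisplatin library, whose 3.91 FPKM stood above the rest. Abcb1b differed by -0.15 (95% interval -0.37 to 0.06).

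The cisplatin change was also measured on a PCN background, in libraries that the contrast of cisplatin and control did not use. Against PCN, cisplatin+PCN raised 9 and lowered 12 of 34 members (61.8%), where 45.6% of all genes passed, 23% higher and 22.5% lower. All 21 were among the 28 members called without PCN and in the same direction. That is 75% of those 28, beside 67.8% for all genes called without PCN. Without the members that reached the expression minimum only through libraries with or only through libraries without cisplatin, 7 were higher and 10 lower of 29. The difference was smaller with PCN than without it in 24 of the 28 members (85.7%) and in 88.4% of the 8050 genes called without PCN, and members called without PCN had a median size of 0.62 without and 0.43 with it. Choosing genes by the contrast without PCN favours a larger size there.

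Abcb1b was nearly as high on both backgrounds, with a difference of 2.61 ± 0.11 against PCN (adjusted p = 3.28e-05). Abcc3 rose by 1.37 ± 0.22 (adjusted p = 0.0037), Abca1 by 1.07 ± 0.10, Abcc4 by 0.83 ± 0.07 and Abcc2 by 0.65 ± 0.09, and for Abcc2 and Abcc4 these are larger than without PCN. Abca13 fell by 2.08 ± 0.18 (adjusted p = 0.000346), Abcb10 by 0.72 ± 0.05, Abcc6 by 0.70 ± 0.12, Abca2 by 0.60 ± 0.07 and Abcb8 by 0.60 ± 0.13. Abcc3 reached the expression minimum only through libraries with cisplatin and Abcc6 only through those without, so the filter favoured these directions. Abcb1a, at 0.30 ± 0.16 (adjusted p = 0.162), did not pass. Leaving out 1 library lost these 5 calls of this contrast, with adjusted p between 0.0506 and 0.0881. Abcd3 was lost without PCN 1, PCN 3 or cisplatin+PCN 3, and Abcc5 without PCN 1, PCN 2 or cisplatin+PCN 3. Abcb9 was lost without PCN 1, PCN 2 or cisplatin+PCN 2, Abca4 without PCN 1, PCN 3, cisplatin+PCN 2 or cisplatin+PCN 3, and Abca8b without any PCN library or cisplatin+PCN 2 or 3. Without cisplatin+PCN 1, Abca3 (adjusted p = 0.0210), Abcc1 (0.0337) and Abcf3 (0.0199) passed.

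**Figure D4:**
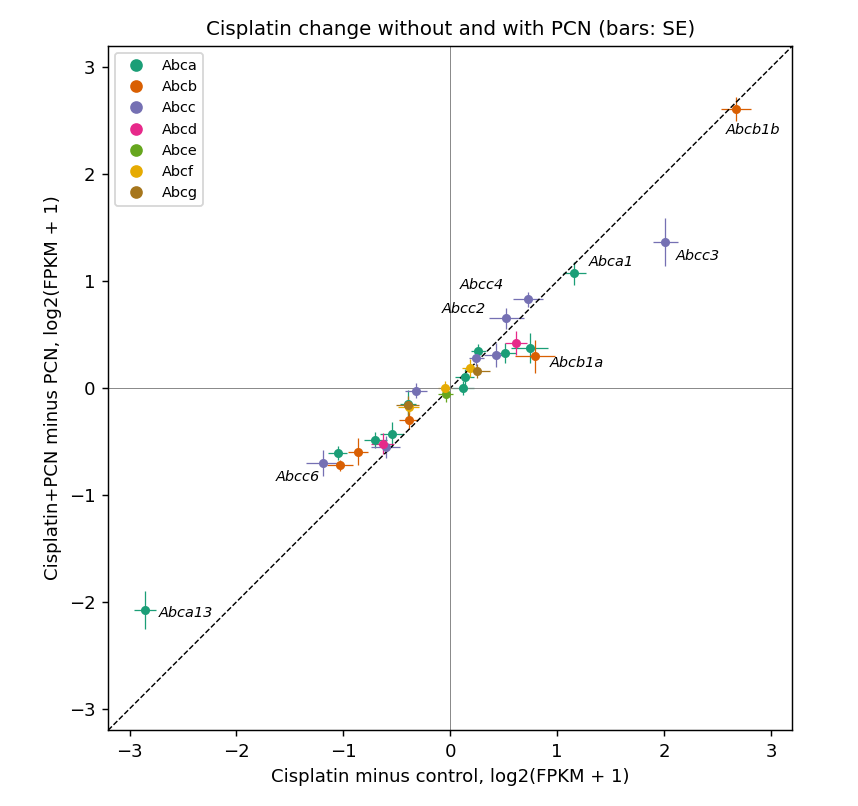
Cisplatin difference in log2(FPKM + 1) without PCN (horizontal axis) against that with PCN (vertical axis) for 32 of the 34 tested members, with SE bars and a dashed line of equality. Abcb1b (2.67 and 2.61) lies near the line, and Abcc3 (2.01 and 1.37) and Abca13 (-2.86 and -2.08) lie nearer to 0 on the vertical axis.

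The difference between these cisplatin changes was tested as an interaction over all 12 libraries. No member passed, 0.111% of all genes did (15 of 13540), and 7 members and 2617 genes had an unadjusted p under 0.05. The interaction was 0.78 ± 0.22 for Abca13 (adjusted p = 0.124), 0.45 ± 0.11 for Abca2 (0.102) and -0.64 ± 0.27 for Abcc3 (0.226). Abca13 passed without the second cisplatin+PCN library (adjusted p = 0.0243), where 493 of all genes passed, and Abca2 (0.0190) without the second cisplatin library, where 1066 did. By voom the Abca13 interaction was 1.41 (adjusted p = 0.0442), where 68 of all genes passed. With array weights, Abca13 (0.00287), Abca2 (0.00353) and Abcc3 (0.0162) passed, where 4315 of all genes did. For Abcb1b the interval of the interaction was -0.48 to 0.35 and for Abca1 -0.43 to 0.25.

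Cisplatin+PCN was also set against control, with which PCN and cisplatin share libraries. It raised 10 and lowered 13 of the 34 members (67.6%), beside 42.6% of all genes. Leaving out members that reached the expression minimum only through libraries with or only through libraries without cisplatin, 7 were higher and 11 lower of 29. Abcb1b rose by 2.52 ± 0.15, Abca1 by 1.37 ± 0.11, Abcc3 by 1.35 ± 0.22 and Abcc2 by 0.79 ± 0.10, and Abca13 fell by 2.03 ± 0.20. Abcc3 is among the members left out of the smaller count, and the filter favoured its rise. The number lowered went down to 5 without control 2, to 7 without control 1 or control 3, and to 8 without the third cisplatin+PCN library. Abca4, Abca6, Abca9, Abcb8, Abcb9, Abcc9, Abcf3 and Abcg2 each lost the call under at least 1 setting.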

How the data were processed

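Expression was analysed from 1 table of FPKM that the authors deposited for 52636 genes and 12 libraries. HISAT2 2.0.5 and featureCounts 1.5.0-p3 are named without settings in the submitters' processing notes, and DESeq2 1.16.1 and edgeR 3.18.1 are listed there with no role. The notes name build mm8, but all 50 members are in GENCODE M21 for GRCm38 and 47 have the same coordinates there, so coordinates are read as GRCm38. Strandedness is not stated in these sources. Multiplying FPKM by the deposited gene length gave whole reads within 0.001 for 100% of values. The library depth implied by FPKM was 0.964 to 0.981 times the recovered reads in control and PCN libraries. It was 1.02 to 1.08 times in cisplatin and 0.952 to 1.11 times in cisplatin+PCN libraries, for a reason not stated in these sources. Replicate pairs had a chi-square per gene of 4.97 to 78.7, above sampling noise, so none was merged.

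The 13540 genes that reached 1 FPKM in 3 or more libraries were tested on log2(FPKM + 1) by limma-trend (limma 3.58.1, R 4.3.3), two-sided, at a Benjamini-Hochberg adjusted p under 0.05. Each pair of groups was fitted on its own 6 libraries, since the spread is larger with cisplatin, and the interaction on all 12. Differences are on that log2 scale with SE unless said, understate changes of low genes, and fold values are ratios of mean FPKM. No exact permutation test was used, since 3 against 3 cannot go below 0.1. Scripts were tested on simulated data. Alternatives were a pseudocount of 0.1, no filter, 2 rescalings, all 12 libraries in the fit, a replicate block, array weights, voom applied to the recovered reads and each library left out in turn. Named genes were a fixed panel of 32 members, the 8 members with the largest rise and fall with cisplatin, the 5 highest in control, and listed partners; members outside the rule were chosen after their values were seen. Members and lists were chosen with earlier results of these data known. Promoter stretches come from RefSeq (GRCm38.p6). Values of some members and partner genes are not reported here.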

Additional observations from a re-analysis of the deposited data

How the results depend on the processing

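For cisplatin against control, 23 of 28 member calls held under every alternative and no call changed direction; leaving out 1 library gave 9 to 14 members higher and 14 to 16 lower. PCN against control called 0 members throughout. For cisplatin+PCN against cisplatin, all 12 libraries in the fit gave 6 higher and 1 lower (2110 of all 13540 genes called) and array weights 10 higher and 3 lower (5685 called), against 0 and 0 (1 called); every other alternative gave 0. For the interaction, array weights gave 7 higher and 3 lower (4315 of all genes called, against 15), limma-voom 1 higher (68 called), and leaving out 1 library 0 to 2 higher (1066 called without cisplatin 2). For cisplatin+PCN against control, the replicate block gave 8 lower against 13, and leaving out 1 library 5 to 13. Over 18 pairs of libraries with equal replicate numbers, the correlation of deviations ran from -0.28 to 0.37, with 4 over 0.1. These values do not settle whether replicate numbers pair the libraries. With the replicate block, cisplatin against control gave 10 higher and 15 lower. The causes were not tested. The median of all genes moved by at most 0.096 under any scaling. Few reads lie behind the 16 members below the expression minimum. With 3 libraries a group, a p that misses the threshold does not show equality.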
